A study of Mus musculus with 64 samples.

Results

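The sites bound by SOX2 and by β-catenin were compared in caudal epiblast-like cells (CEpiLCs), the cultured counterpart of the embryonic tissue that forms the trunk. The comparison used 6 of the 64 samples of the study, 3 libraries immunoprecipitated with a SOX2 antibody and 3 with a β-catenin antibody, chosen by the labelled target and condition. Chromatin immunoprecipitation followed by sequencing (ChIP–seq) reads the DNA that is cross-linked to a protein, and a peak is a stretch of genome where that DNA piles up. After lists of equal length were merged, 28979 sites remained, of which 3674 (12.7%) were bound by both proteins, 3696 (12.8%) by SOX2 only and 3457 (11.9%) by β-catenin only.

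CEpiLCs were made from wild-type mouse embryonic stem cells (ESCs) of the HM1 TetON line on the 129 background. Cells were grown in bFGF at 10 ng/ml with LGK974, an inhibitor of WNT secretion, at 5 µM, and CHIR99021, a GSK3 inhibitor that stabilizes β-catenin, was added from day 2 until harvest at day 3. All CEpiLC libraries share this treatment, so β-catenin was measured only under an activated WNT pathway. As readouts that took no part in defining the classes, 9 libraries of the same cells were used, against LEF1, TCF7L1 and TCF7L2. The labels name the last pair TCF3 and TCF4. SOX2 and β-catenin libraries of the other 3 conditions, 18 in all, were used in the same way. Naive ESCs were wild-type cells in 2i medium, which also holds a GSK3 inhibitor together with a MEK inhibitor. SOX2-ON and SOX2-OFF cells came from a Sox2-/- clone with a doxycycline-driven Sox2 transgene, differentiated like CEpiLCs with doxycycline maintained or withdrawn. Each protein and condition had 3 biological replicates, and p-values measure the spread between them. Peak lists hold no expression values, so the labelled cell type was not checked by marker genes.

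SOX2 is a high-mobility-group transcription factor that holds pluripotent and neural progenitor states, and it bends the DNA it binds. β-catenin has no DNA-binding domain. When WNT ligands or CHIR99021 block its degradation, it enters the nucleus and is held on chromatin mainly by the LEF1/TCF proteins, which are high-mobility-group factors too and read a related sequence. SOX2 and WNT signalling meet in the caudal epiblast, where neuromesodermal progenitors express SOX2 together with T/BRA and give rise to spinal cord and paraxial mesoderm.

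Sequences of 121 bp around the middle of the summits are printed for 11 sites, to show what the classes look like on the DNA. A summit is the base with the highest pile-up in a peak. The windows are read from the forward strand of GRCm38, the same assembly as the mm10 build of the files, and none of them overlaps an exon. Capitals mark SOX matches (CATTGT or CTTTGT on either strand) and TCF matches (CTTTGAT or CTTTGAA on either strand). The SOX form CTTTGT and the TCF forms share their first letters CTTTG and differ in the next, and the SOX form CATTGT differs earlier. No TCF match contains a whole SOX match, although matches can overlap in part. The first 5 are bound by both proteins. That nearest to Med13l (chr5:119055607-119055727, intergenic) is among the strongest shared sites. Those nearest to Lef1 (chr3:131106019-131106139, intergenic) and Nkd1 (chr8:88451195-88451315, intergenic) belong to WNT feedback genes, and those in the Cdx2 intron (chr5:147304950-147305070) and the T promoter (chr17:8434061-8434181) to caudal epiblast genes.
Med13l: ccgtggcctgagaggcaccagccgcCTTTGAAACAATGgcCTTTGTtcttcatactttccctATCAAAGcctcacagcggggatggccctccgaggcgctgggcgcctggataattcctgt
Lef1: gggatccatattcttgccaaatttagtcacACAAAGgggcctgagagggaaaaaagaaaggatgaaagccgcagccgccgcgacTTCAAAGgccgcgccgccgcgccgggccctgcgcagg
Nkd1: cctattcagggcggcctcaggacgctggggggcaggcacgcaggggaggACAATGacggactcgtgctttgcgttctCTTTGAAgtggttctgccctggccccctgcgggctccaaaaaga
Cdx2: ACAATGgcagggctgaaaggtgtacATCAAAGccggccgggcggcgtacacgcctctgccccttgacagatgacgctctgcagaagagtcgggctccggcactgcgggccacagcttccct
T: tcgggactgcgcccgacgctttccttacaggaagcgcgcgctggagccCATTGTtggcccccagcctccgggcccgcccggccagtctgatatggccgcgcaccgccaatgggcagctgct
The next 3 are bound by SOX2 only and were chosen from the strongest of that class. They lie near Lefty1 (chr1:180933825-180933945, intergenic), in an Ebf1 intron (chr11:44841831-44841951) and near Sox9 (chr11:112811195-112811315, intergenic).
Lefty1: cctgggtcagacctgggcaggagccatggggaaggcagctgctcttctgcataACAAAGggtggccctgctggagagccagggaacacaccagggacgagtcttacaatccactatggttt
Ebf1: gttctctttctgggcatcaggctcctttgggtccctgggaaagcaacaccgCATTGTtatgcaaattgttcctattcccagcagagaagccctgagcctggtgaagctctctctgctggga
Sox9: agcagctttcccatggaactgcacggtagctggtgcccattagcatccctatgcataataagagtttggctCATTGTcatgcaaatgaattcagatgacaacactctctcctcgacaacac
The last 3 are bound by β-catenin only. They lie near Gm572 (chr4:148686552-148686672, intergenic), in a Prickle2 intron (chr6:92511024-92511144) and upstream of Hoxb9 (chr11:96261456-96261576, intergenic).
Gm572: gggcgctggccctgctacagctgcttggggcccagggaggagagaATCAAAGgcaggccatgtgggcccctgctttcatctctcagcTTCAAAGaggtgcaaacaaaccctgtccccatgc
Prickle2: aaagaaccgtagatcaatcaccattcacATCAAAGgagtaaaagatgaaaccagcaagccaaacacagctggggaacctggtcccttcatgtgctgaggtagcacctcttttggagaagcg
Hoxb9: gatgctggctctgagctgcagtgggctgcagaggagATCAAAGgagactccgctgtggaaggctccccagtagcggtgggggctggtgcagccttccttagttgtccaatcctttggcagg
Of the 5 shared windows shown, those of Med13l, Lef1, Nkd1 and Cdx2 held a SOX and a TCF match, and that of T held a SOX match. The SOX2-only windows shown held a SOX match and no TCF match, and the β-catenin-only windows shown held a TCF match and no SOX match. These windows were picked from the named sites for their matches and are illustrations. The shares over all sites follow below.

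The deposited lists held 29298, 104085 and 39683 SOX2 peaks and 20453, 15201 and 10930 β-catenin peaks in replicates 1, 2 and 3. SOX2 replicate 2 stood apart by the length of its list. The lists give no reads per peak, so depth is unknown and no counting interval is given. Each list was ranked by its deposited −log10 p-value and the top 10930 peaks were kept, so that the lengths were equal. The last kept peak had a −log10 p-value of 11.3, 12.2 and 12.2 in the SOX2 libraries and of 10.0, 7.60 and 3.99 in the β-catenin libraries. Equal length is therefore a stricter rule for SOX2 than for β-catenin. The first peak left out had the same −log10 p-value at this precision in the 5 libraries that lost peaks. On exons of Tfap2a, Tfap2c and Tcf7l1, where peaks clustered in replicate 1, 22 sites were found and 3 of them fell in a class, 2 SOX2 only and 1 both.

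A protein was called bound at a site when at least 2 of its 3 libraries had a peak there, which is the consensus rule of the study, and not bound when 0 of 3 did. SOX2 bound 8618 sites, of which 42.6% were also bound by β-catenin, and β-catenin bound 8584, of which 42.8% were also bound by SOX2. A further 1248 SOX2-bound sites had a peak in 1 β-catenin library, and 1453 β-catenin-bound sites had a peak in 1 SOX2 library. Peaks in 1 library only made up 49.3% of the sites. All 6 libraries had a peak at 1944 sites, and 1693 sites had all 3 SOX2 libraries and no β-catenin library, against 1758 with the reverse.

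Absence depends on the list length. With all deposited peaks, 2739 of the 3696 SOX2-only sites (74.1%) still had no β-catenin peak, whereas 1332 of the 3457 β-catenin-only sites (38.5%) still had no SOX2 peak. Most β-catenin-only sites thus held a weaker SOX2 peak in at least 1 library, and the full SOX2 lists were the longer ones. When replicate 1 of both proteins was left out and both remaining libraries were required, sites bound by both fell to 2294, and when replicate 3 was left out SOX2-only sites fell to 2462.

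**Figure D1:**
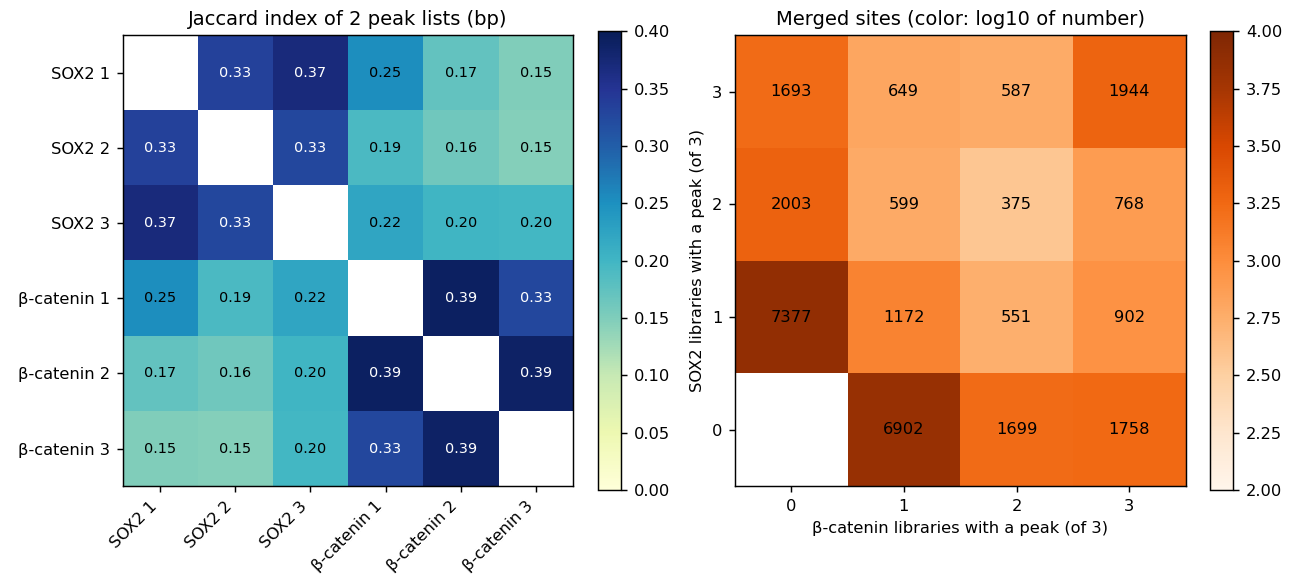
Left, Jaccard index (shared base pairs over base pairs in either list, color scale from 0 to 0.4) for each pair of the 6 CEpiLC peak lists. Right, number of merged sites by how many of 3 SOX2 libraries (vertical axis) and of 3 β-catenin libraries (horizontal axis) had a peak, with color on a log10 scale. Pairs of 1 protein lie between 0.325 and 0.392 and pairs of different proteins between 0.146 and 0.253, and the corner with all 6 libraries holds 1944 sites.

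To ask how much of each protein's binding meets the other, the share of a library's peaks that overlapped a peak of the other protein was averaged over the 3 libraries of that protein. The share was 36.8%, 32.5% and 38.8% in the SOX2 libraries and 40.5%, 34.8% and 34.4% in the β-catenin libraries. The groups overlapped, with means of 36.0% ± 3.23 and 36.6% ± 3.42 (SD, n = 3), and the difference of −0.567 percentage points had p = 1.00 (exact two-sided permutation test). With all deposited peaks, where the SOX2 lists are longer, it was −34.3 (exact permutation p = 0.1). With equal lists this difference can only reflect how many peaks of 1 list fall on the same peak of the other. Same-numbered libraries met at 44.1%, 31.1% and 37.1% of SOX2 peaks.

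Libraries of the same protein shared more of the genome than libraries of different proteins. The Jaccard index averaged 0.356 over the 6 pairs within a protein and 0.188 over the 9 pairs between proteins. All pairs within a protein lay above all pairs between proteins. The difference of 0.168 had p = 0.1 (exact one-sided permutation test over the 10 divisions of the libraries), the smallest p this design allows.

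At the 1944 sites with a peak in all 6 libraries, SOX2 and β-catenin summits lay close together. The distance between the median SOX2 summit and the median β-catenin summit had a median of 25.0 bp, with quartiles at 11.0 and 58.0 bp. Of these sites, 71.3% had summits within 50 bp and 23.4% within 10 bp, whereas 223 sites (11.5%) had summits more than 200 bp apart. Over all 3674 sites bound by both, the median was 30.0 bp and 444 sites (12.1%) lay beyond 200 bp, where the merged interval joins peaks that are side by side.

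The spread between replicates sets the scale for these distances. Summits of 2 libraries of the same protein differed by 23.0 to 31.0 bp in the median, with a mean of 26.3 bp. Summits of a SOX2 and a β-catenin library differed by 32.0 to 42.0 bp, with a mean of 36.1 bp. No pair between proteins was as close as any pair within a protein, and the difference of 9.78 bp had p = 0.1 (exact one-sided permutation test over 10 divisions, the smallest p possible). With at most 2000 peaks per list the means were 18 and 24 bp, so the gap persisted among the strongest peaks.

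To ask which sequences lay under the summits, the sequence within 100 bp of each summit was searched on both strands for 4 motifs. Windows 5000 bp away served as background. They were not matched to the summits for base composition, and its part in the comparisons with background was not tested. A match is a description of the letters, and it does not show that a factor binds there. SOX matches were found at 56.0%, 45.8% and 47.1% of SOX2 summits and at 32.0%, 29.4% and 26.4% of β-catenin summits. Every SOX2 library lay above every β-catenin library. The means were 49.7% ± 5.56 and 29.2% ± 2.82 (SD, n = 3), a difference of 20.4 percentage points (exact permutation p = 0.1, Benjamini–Hochberg adjusted p = 0.133 over the 4 motifs). Away from the summits the shares were 26.1% and 26.2%, so β-catenin summits were 1.12 times the background and SOX2 summits 1.91 times.

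TCF matches, the sequence read by the LEF1/TCF partners of β-catenin, showed the reverse order. They were found at 14.8%, 13.8% and 14.5% of SOX2 summits and at 41.4%, 39.8% and 34.8% of β-catenin summits. The groups did not overlap, and the difference of −24.3 percentage points had exact permutation p = 0.1 (adjusted p = 0.133). Background shares were 8.02% and 8.27%. SOX2 summits held 1.79 times and β-catenin summits 4.68 times the background.

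T matches (GGTGTGA, the core read by T/BRA and other T-box factors) were found at 3.15%, 3.83% and 4.36% of SOX2 summits and 5.38%, 5.93% and 6.15% of β-catenin summits. The groups did not overlap (difference −2.04 percentage points, exact permutation p = 0.1, adjusted p = 0.133), and the background shares were 2.63% and 2.84%. CDX matches (TTTATTG or TTTATGG, read by the caudal-type homeobox factors) were in the mean slightly below background for both proteins, with 6.74% ± 1.77 and 6.89% ± 2.45 against 7.39% and 7.38% (SD, n = 3). The CDX difference of −0.146 had exact permutation p = 1.00, and its sign changed with the window and the list length. In both proteins the CDX share was highest in replicate 1, at 8.62% and 9.57%, and lowest in replicate 3, at 5.11% and 4.77%.

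The other 4 motifs were described and not tested. The octamer ATGCAAAT, read by OCT4 and other POU factors, was found at 4.5% ± 0.338 of SOX2 summits and 3.04% ± 0.635 of β-catenin summits, against 1.19% and 1.26% away (SD, n = 3). GC boxes (CCCGCCC), a mark of CpG-rich promoters, were found at 15.5% and 13.2% of summits, against 1.93% and 1.71% away. AP-1 matches (TGACTCA) were found at 4.4% and 5.10%, and ETS matches (CCGGAAG) at 3.01% and 2.38%.

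**Figure D2:**
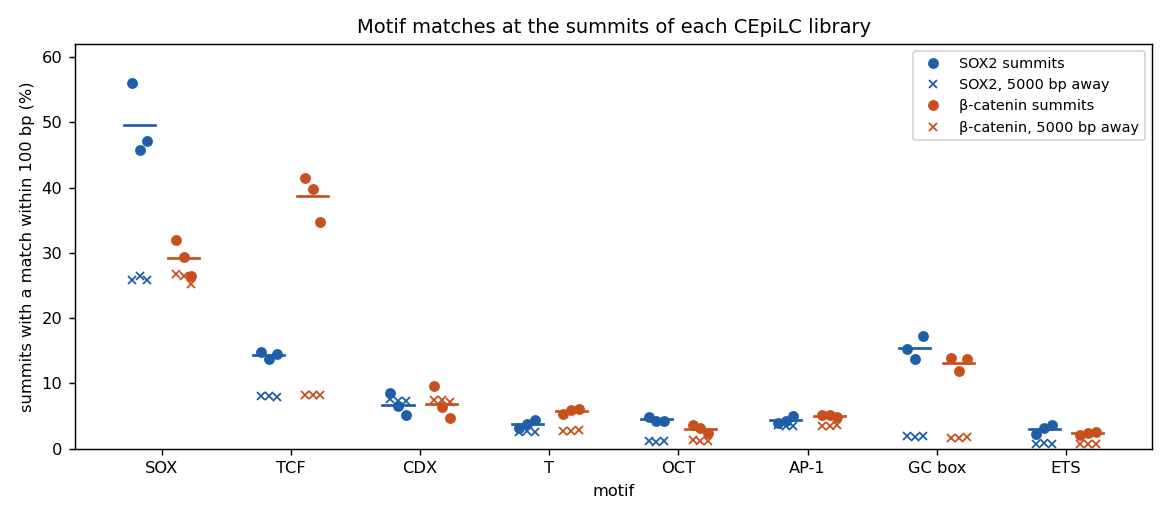
Share of the 10930 summits of each CEpiLC library with a match within 100 bp (vertical axis, %) for 8 motifs. Filled circles are libraries, horizontal bars the means of 3 libraries, and crosses the same share 5000 bp away. SOX matches separate the libraries with SOX2 above (means 49.7% and 29.2%) and TCF matches with β-catenin above (means 14.4% and 38.7%).

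SOX2 summits were also placed nearer to gene starts when equal lists were compared. A summit lay within 1000 bp of the start of a protein-coding transcript for 24.3%, 25.6% and 28.8% of SOX2 peaks and 18.4%, 18.9% and 23.3% of β-catenin peaks. Each SOX2 library lay above each β-catenin library, by 6.05 percentage points in the mean (exact two-sided permutation p = 0.1, the smallest possible). With all deposited peaks the difference was 0.695 percentage points (exact permutation p = 1.00).

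The classes were set by the 6 libraries, so what they share in sequence is given as a description with no test. SOX matches lay within 100 bp of the middle of 45.2% of the sites bound by both, 56.9% of SOX2-only sites and 20.8% of β-catenin-only sites, beside 36.6% of all merged sites. TCF matches lay at 31.6%, 4.76% and 57.8%, beside 22.6% of all merged sites. SOX2-only sites thus held TCF matches less often than their own background 5000 bp away (7.20%), and β-catenin-only sites held SOX matches less often than theirs (26.6%). This background was not matched for base composition. GC boxes lay above it in each class, at 14.9%, 17.7% and 10.8% against 1.74%, 2.07% and 1.66%.

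For SOX, TCF and T matches the shared sites lay between the other classes, whereas for CDX matches and the octamer they were highest, the octamer by little. A SOX and a TCF match occurred together at 13.2% of the sites bound by both, 2.76% of SOX2-only sites and 11.9% of β-catenin-only sites. Neither match was found at 36.4%, 41.1% and 33.3%. T matches were found at 5.55%, 2.38% and 7.12%, and CDX matches at 7.87%, 4.68% and 5.47%. The octamer was found at 5.23% of shared and 5.19% of SOX2-only sites, but at 2.46% of β-catenin-only sites. Outside promoters the order stayed, with SOX matches at 45.9%, 60.6% and 22.8% and TCF matches at 35.1%, 5.73% and 62.8%.

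Sites with no peak of the other protein even in the full lists differed from the rest of their class in TCF matches for β-catenin and in promoters for both proteins. The 1332 such β-catenin-only sites held TCF matches at 69.4%, SOX matches at 18.7% and promoters at 8.71%, whereas the 2125 with a weaker SOX2 peak held them at 50.5%, 22.1% and 21.7%. For SOX2-only sites the shares of SOX matches were 57.3% and 55.9%, those of TCF matches 4.49% and 5.54%, and those of promoters 29.8% and 38.1%.

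Position and base composition differed between the classes as well. Promoters, within 1000 bp of a transcript start, held 17.5% of the sites bound by both, 32.0% of SOX2-only sites and 16.7% of β-catenin-only sites, beside 25.0% of all merged sites. The median distance to the nearest start was 20.1, 9.61 and 25.1 kb. At least 5 CpG dinucleotides within 100 bp were found at 35.3%, 46.1% and 29.4%. Merged sites bound by both were wider, with medians of 778, 478 and 374 bp, as they joined more peaks. The middle of the site lay in masked repeats at similar shares (17.5%, 16.0% and 16.9%).

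Peaks at shared sites had the higher folds in each library. This is a description, because the same lists set the classes. The strongest peak of each library at a site was taken, and shared sites were wider and joined more peaks. The deposited fold, the ratio of signal to local background at the summit, had a median of 9.95, 10.9 and 12 at shared sites in the SOX2 libraries and of 7.64, 8.94 and 9.02 at SOX2-only sites. In the β-catenin libraries it was 11.2, 9.38 and 7.94 at shared sites and 7.18, 6.82 and 6.16 at β-catenin-only sites. Of the 1000 strongest peaks, 70.9% to 74.8% in the SOX2 libraries and 73.4% to 84.6% in the β-catenin libraries lay at shared sites. In comparison, SOX2-only sites held 13.4% to 17.3% and β-catenin-only sites 3.80% to 9.40% of them.

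The summits of shared sites were then set against the motifs. This measurement was chosen after the summit distances and motif shares had been seen. At the 958 sites with a peak in all 6 libraries and a SOX match, the median distance from summit to match was 27.0, 32.5 and 26.5 bp in the SOX2 libraries and 43.0, 42.5 and 43.5 bp in the β-catenin libraries. SOX2 summits were nearer by 14.3 bp (difference −14.3, exact two-sided permutation p = 0.1, adjusted p = 0.133 over 4 motifs). At the 668 sites with a TCF match, the distance was 40, 47.0 and 43.0 bp for SOX2 and 28.5, 29 and 30.0 bp for β-catenin. Here β-catenin summits were nearer, by 14.2 bp (exact permutation p = 0.1, adjusted p = 0.133).

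In these libraries SOX2 summits thus lay nearer to SOX matches and β-catenin summits nearer to TCF matches at the same sites. T matches, at 123 of these sites, also lay nearer to β-catenin summits, at 34.3 ± 1.53 bp against 45.3 ± 2.31 bp for SOX2 (SD, n = 3, exact permutation p = 0.1, adjusted p = 0.133). With at most 2000 peaks per list the T difference turned to −0.667 bp. CDX matches, at 156 sites, lay at 50.5 bp from SOX2 and 47.2 bp from β-catenin summits, and the libraries overlapped (exact permutation p = 0.4).

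At 262 sites a SOX and a TCF match lay at least 20 bp apart, with a median gap of 60.5 bp, and the summits could be placed between them. The summit was nearer to the SOX match at 62.2%, 59.5% and 56.9% of these sites in the SOX2 libraries. In the β-catenin libraries it was nearer to the SOX match at 41.2%, 41.6% and 36.6%. The groups did not overlap, and the difference of 19.7 percentage points had exact permutation p = 0.1. In the median the SOX2 summit lay 16.5, 22.0 and 23.0 bp from the SOX match towards the TCF match, and the β-catenin summit 37.5, 41.5 and 44.0 bp.

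**Figure D3:**
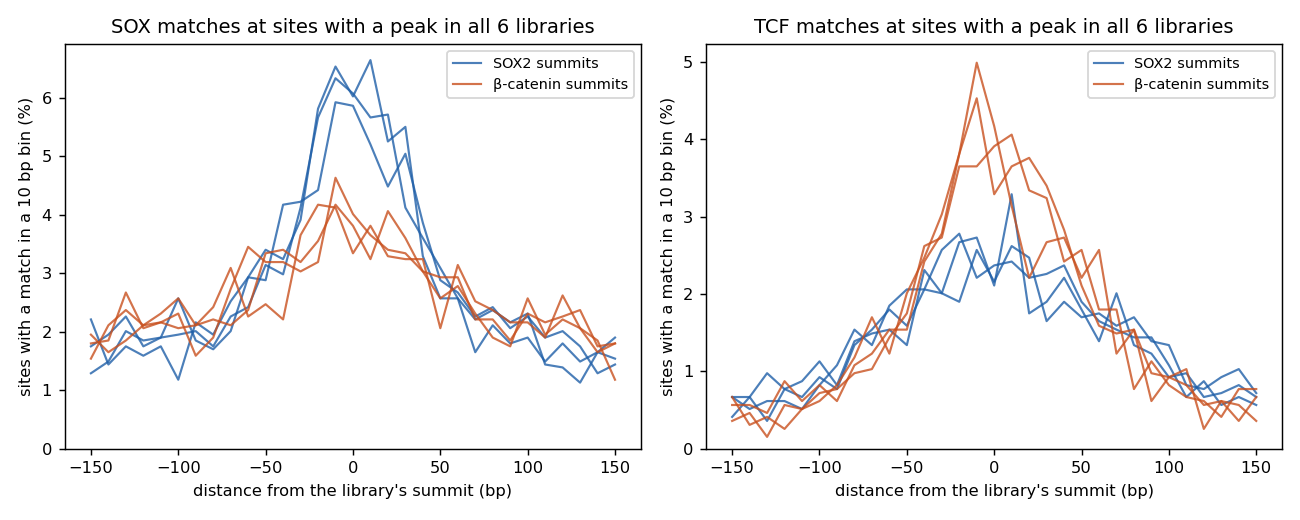
Share of the 1944 sites with a peak in all 6 libraries that hold a SOX match (left) or a TCF match (right) in 10 bp bins around the library's own summit (horizontal axis, bp). Each line is 1 CEpiLC library. In the bin at the summit (0 bp), SOX matches are at 5.86% to 6.07% for SOX2 and 3.34% to 4.01% for β-catenin, and TCF matches at 2.11% to 2.37% and 3.29% to 4.17%, while at 10 bp the TCF ranges of the proteins overlap (2.42% to 3.29% and 3.14% to 4.06%).

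LEF1, TCF7L1 and TCF7L2, the DNA-binding partners of β-catenin, were mapped in the same cells and took no part in the classes. To ask where they bound, each list was shortened to the shortest of its protein, 4443 peaks for LEF1, 1628 for TCF7L1 and 4627 for TCF7L2. LEF1 peaks were found at 48.3%, 48.8% and 43.8% of the sites bound by both, at 27.7%, 31.3% and 32.4% of β-catenin-only sites and at 0.866%, 0.622% and 0.866% of SOX2-only sites. In each of the 3 libraries shared sites were highest and SOX2-only sites lowest. The shared sites exceeded SOX2-only sites by 46.2 percentage points and β-catenin-only sites by 16.5 (both p = 0.25, exact two-sided sign-flip permutation test, the smallest p that 3 libraries allow).

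TCF7L1, which acts as a repressor of WNT target genes in pluripotent cells, had peaks at 18.2%, 29.2% and 26.0% of shared sites. It had peaks at 1.82%, 6.51% and 8.01% of β-catenin-only sites and at 0.0812% to 0.135% of SOX2-only sites. The difference between shared and β-catenin-only sites was 19.0 percentage points, in the same direction in 3 of 3 libraries (exact sign-flip permutation p = 0.25). TCF7L2 had peaks at 36.2%, 26.3% and 28.8% of shared sites, 12.4%, 9.49% and 10.8% of β-catenin-only sites and 5.47%, 4.76% and 5.28% of SOX2-only sites. It was the factor of the 3 with most peaks at SOX2-only sites, yet these lay below its share of all merged sites (8.24% to 10.9%).

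As shared sites were wider, the shares were recomputed in a fixed window reaching 100 bp to each side of the middle, an alternative chosen after seeing the data. The differences between shared and β-catenin-only sites were then 14.6, 18.5 and 18 percentage points for LEF1, TCF7L1 and TCF7L2.

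Shared sites also held stronger β-catenin peaks, so the classes were compared at like β-catenin rank, taken as the median over the libraries with a peak. Up to rank 2000, LEF1 had peaks at 86.0% ± 2.24 of 1295 shared sites and 76.6% ± 7.15 of 303 β-catenin-only sites (SD, n = 3). Between ranks 2000 and 5000 the order turned, with 33.8% ± 3.85 and 40.5% ± 3.63, and beyond rank 5000 it was 10.3% ± 1.70 and 17.3% ± 1.29. The higher LEF1 share of shared sites therefore held among the strongest β-catenin peaks and not below them. TCF7L2 stayed higher at shared sites in each range, at 56.2% against 29.8%, 16.8% against 12.1% and 9.56% against 6.52%. TCF7L1 was at 58.7% and 30.1% up to rank 2000, at 8.65% and 6.38% between 2000 and 5000, and near 1% in both classes beyond (1.04% and 1.18%).

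The motif contrast was present in each range of rank. TCF matches lay at 52.7% of shared and 79.5% of β-catenin-only sites up to rank 2000, at 25.3% and 63.8% between ranks 2000 and 5000, and at 14.6% and 51.1% beyond. SOX2-only sites held LEF1 peaks at 0.711%, 0.497% and 0.615% in the corresponding ranges of SOX2 rank, whereas shared sites held them at 53.3%, 44.3% and 36.7%.

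**Figure D4:**
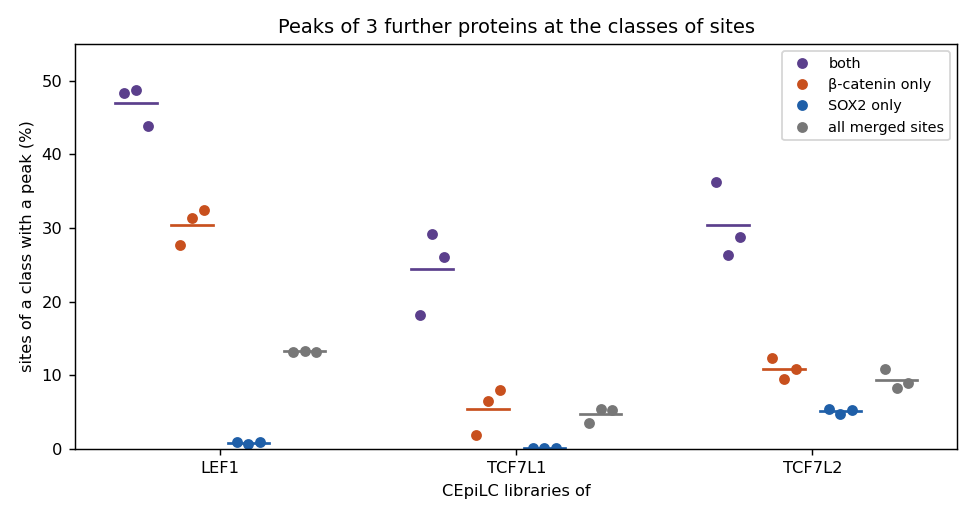
Share of the sites of each class (vertical axis, %) with a peak of LEF1, TCF7L1 or TCF7L2 in CEpiLCs. Points are the 3 libraries of each protein and bars their means, for sites bound by both, by β-catenin only, by SOX2 only and for all merged sites. In each protein the sites bound by both lie highest (means 47.0%, 24.5% and 30.4%) and SOX2-only sites lowest (0.785%, 0.108% and 5.17%).

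Binding in the other conditions was described at the same sites, with 20000 peaks kept per SOX2 library and 3423 per β-catenin library. At this length the CEpiLC SOX2 libraries, which helped set the classes, met 94.6% of shared, 89.5% of SOX2-only and 14.2% of β-catenin-only sites. Naive ESC SOX2 libraries had peaks at 48.4% ± 5.32 of shared sites, 46.8% ± 7.73 of SOX2-only sites and 7.0% ± 0.840 of β-catenin-only sites (SD, n = 3). SOX2-ON libraries were similar, at 53.3%, 47.4% and 6.16%. SOX2 libraries labelled SOX2-OFF, from Sox2-/- cells after doxycycline withdrawal, had at least 20000 peaks each. They met 57.5%, 57.7% and 77.4% of shared sites, 32.8%, 50.3% and 43.4% of SOX2-only sites and 9.37%, 9.52% and 27.6% of β-catenin-only sites. Replicate 3 stood apart in this group at shared and β-catenin-only sites, but not at SOX2-only sites. Because the lists are of equal length, the shares do not measure how much SOX2 was bound. The paper holds SOX2 protein that lingered at a low level after doxycycline withdrawal to be the probable source of SOX2 signal in SOX2-OFF. This was not tested here.

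β-catenin libraries of naive ESCs had peaks at 26.0% ± 2.26 of shared sites, 4.51% ± 0.102 of SOX2-only sites and 7.07% ± 0.498 of β-catenin-only sites (SD, n = 3). In SOX2-ON cells the shares were 34.4%, 4.63% and 7.81%. In SOX2-OFF cells they were 39.7%, 0.920% and 22.3%, so that the β-catenin-only sites of CEpiLCs were met at 16.2% to 25.7% in SOX2-OFF and at 6.71% to 9.17% in the 6 naive ESC and SOX2-ON libraries. SOX2-only sites were met by β-catenin at 4.38% to 4.76% in the latter and at 0.514% to 1.33% in SOX2-OFF. The CEpiLC β-catenin libraries themselves, cut to the same 3423 peaks, met 52.8% ± 3.67 of shared and 23.7% ± 4.20 of β-catenin-only sites (SD, n = 3). They met 0 of the SOX2-only sites by definition. The shares of the other conditions are to be read beside these values.

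The genes nearest to the sites were then listed. Of 21864 protein-coding genes, 2646 (12.1%) were nearest to at least 1 site bound by both, 3093 (14.1%) to a SOX2-only site and 2726 (12.5%) to a β-catenin-only site. A gene could belong to several classes, and 343 genes had all 3. Only shared sites were found at 1354 genes, only SOX2-only sites at 1906 and only β-catenin-only sites at 1474. Most genes with shared sites had 1 (1976 genes), and 39 had 5 or more.

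The genes with most shared sites were picked after their counts were seen. Tle3, a corepressor that competes with β-catenin for TCF proteins, had 9 shared sites, 1 SOX2-only and 5 β-catenin-only sites. Sall4, a zinc-finger factor of pluripotent and caudal progenitor cells, had 7, 0 and 1. Sp8, a WNT-responsive zinc-finger factor, had 6, 2 and 2, and Lef1 itself had 5, 1 and 3.

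Genes of the WNT pathway were near shared and near β-catenin-only sites. Of the 19 WNT feedback and target genes listed, 13 (68.4%) were nearest to a site bound by both, 12 (63.2%) to a β-catenin-only site and 4 (21.1%) to a SOX2-only site, beside 12.1%, 12.5% and 14.1% of all genes. Within 10000 bp of a start the shares were 63.2%, 26.3% and 15.8%, beside 5.71%, 5.19% and 7.94% of all genes. At the Sp5 promoter (summit chr2:70474938, 15 bp downstream of the start of this transcriptional repressor induced by WNT) the fold was 39.4, 38.4 and 36.5 for SOX2 and 71.3, 120.1 and 84.3 for β-catenin. Folds of different antibodies are not on a common scale, so an order between the proteins at 1 site describes these lists and not amounts of protein. All 6 libraries had strong peaks at Sp5, and 3 more shared sites and 3 β-catenin-only sites were nearest to Sp5. At the shared site upstream of Lef1, shown above, the fold was 11.4, 7.45 and 19.6 for SOX2 and 29.6, 28.1 and 34.4 for β-catenin.

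Axin2, which encodes a scaffold of the β-catenin destruction complex, had 3 shared, 3 β-catenin-only and 0 SOX2-only sites. At its promoter (summit chr11:108920871) the fold was 5.50, 5.38 and 8.46 for SOX2 and 40.1, 41.6 and 43.5 for β-catenin. At the Znrf3 promoter, whose product removes WNT receptors, SOX2 had a fold of 5.34 and 9.73 in replicates 1 and 3 and no peak among those kept in replicate 2, and β-catenin had 32.2, 33.2 and 30.4. The SOX2 peaks at these promoters ranked between 2952 and 8097 in their libraries, while the β-catenin peaks ranked between 28 and 299. The opposite was seen 3.55 kb upstream of Tcf7, with a SOX2 fold of 30.7, 63.2 and 84.8 and a β-catenin fold of 4.54 and 4.76 in replicates 2 and 3 only.

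Caudal epiblast and neuromesodermal progenitor genes were mostly near shared sites. Of the 17 genes listed, 13 (76.5%) were nearest to a shared site, 9 (52.9%) to a β-catenin-only site and 2 (11.8%) to a SOX2-only site. Over all genes these shares were 12.1%, 12.5% and 14.1%. Within 10000 bp the shares were 64.7%, 35.3% and 0%, beside 5.71%, 5.19% and 7.94% of all genes. With all deposited peaks the SOX2-only share was 52.9%, above the 36.9% of all genes. Cdx2, a homeobox gene of the posterior body, had 3 shared sites, 0 SOX2-only, 0 β-catenin-only and 3 of neither class. In its intron the fold was 16.2, 29.2 and 34.4 for SOX2 and 32.7, 38.6 and 39.3 for β-catenin. At the T promoter, 302 bp upstream of the start, the fold was 10.6, 18.2 and 21.9 for SOX2 and 34.1, 38.4 and 28.1 for β-catenin.

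T also had 2 further shared sites, 1 SOX2-only and 2 β-catenin-only sites. At the Wnt5b promoter the fold was 27.9, 39.3 and 46.7 for SOX2 and 40.5, 42.3 and 22.0 for β-catenin. Near Fgf8, 19.6 kb downstream of its start, SOX2 had 11.0, 11.1 and 35.8 and β-catenin 29.6, 35.2 and 33.6. In these sites the ranges of the 2 proteins overlap, except at the T promoter. β-catenin was higher in each replicate there and in the Cdx2 intron.

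Primitive streak and mesoderm genes followed a like order. Of 24 genes, 14 (58.3%) were nearest to a shared site and 13 (54.2%) to a β-catenin-only site, beside 12.1% and 12.5% of all genes. To a SOX2-only site 4 (16.7%) were nearest, near the 14.1% of all genes. With all deposited peaks that share was 66.7%, above the 36.9% of all genes. Hes7, an oscillating repressor of the somite clock, had a shared site 2.33 kb upstream with a fold of 9.77, 9.11 and 23.6 for SOX2 and 46.8, 76.7 and 89.8 for β-catenin. Near Dll1, a Notch ligand of presomitic mesoderm, the balance was the other way, with 34.4, 58.1 and 57.1 for SOX2 and 9.05, 7.94 and 10.8 for β-catenin. Nodal, the ligand that induces the streak, had 2 shared sites, 0 SOX2-only, 0 β-catenin-only and 4 of neither class. At 1 of the last, 11.8 kb upstream of the start, β-catenin had folds of 25.5, 41.4 and 35.9. SOX2 had a peak there in replicate 3 only, with a fold of 6.51. Tbx6, a T-box gene of paraxial mesoderm, had 2 β-catenin-only sites, and another site, in an exon 3.86 kb downstream of its start, had β-catenin folds of 20.6, 33 and 31.5 and a SOX2 peak in replicate 3 only.

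Neural progenitor genes were near sites of each class. Of 25 genes, 17 (68.0%) were nearest to a shared site, 15 (60%) to a SOX2-only site and 12 (48.0%) to a β-catenin-only site, beside 12.1%, 14.1% and 12.5% of all genes. Within 10000 bp the shares were 44.0%, 28.0% and 20.0%, beside 5.71%, 7.94% and 5.19%. As classed here, without a limit of distance, the SOX2-only share was the highest of the lists. Within 10000 bp it was below those of retinoic acid (40%) and pluripotency genes (30.0%). In an intron of Pax3, a transcription factor of the dorsal neural tube, the fold of the shared site was 19.9, 25.1 and 24.7 for SOX2 and 13.5 and 5.77 for β-catenin in replicates 1 and 2, with no β-catenin peak kept in replicate 3.

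Of 20 pluripotency genes, 10 (50%) were nearest to a shared, 8 (40%) to a SOX2-only and 9 (45.0%) to a β-catenin-only site, beside 12.1%, 14.1% and 12.5% of all genes. At the Pou5f1 promoter region, 868 bp upstream of the start of the gene for OCT4, the fold was 15.5, 21 and 27.1 for SOX2 and 11.9, 15.6 and 7.14 for β-catenin. Klf2 had 1 SOX2-only site, with folds of 6.96 and 8.22 in replicates 1 and 3. Sox2 itself was nearest to 20 sites, 4 shared, 1 SOX2-only, 2 β-catenin-only and 13 of neither class. At the SOX2-only site, 3.66 kb downstream of the Sox2 start, the fold was 12.9, 15.8 and 12.4. At the shared site 15 kb downstream, β-catenin had 18.4, 17.9 and 15 and SOX2 6.49, 8.48 and 7.80, with no overlap.

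FGF and ERK feedback genes were mostly near shared sites, with the highest share of the lists as classed here. With all deposited peaks their share was 87.0%, the next highest after caudal epiblast genes (94.1%), beside 21.2% of all genes. Of 23 genes, 18 (78.3%) were nearest to a site bound by both, 8 (34.8%) to a β-catenin-only site and 6 (26.1%) to a SOX2-only site. Over all genes these shares were 12.1%, 12.5% and 14.1%. Within 10000 bp the shares were 73.9%, 4.35% and 13.0%, beside 5.71%, 5.19% and 7.94% of all genes. β-catenin-only sites near the starts of these genes were thus about as frequent as over all genes. At the promoter of Il17rd, an inhibitor of FGF signalling, the fold was 43.8, 67.4 and 96.0 for SOX2 and 31.0, 36.0 and 31.6 for β-catenin. Upstream of Spry2, an ERK pathway antagonist, it was 54.8, 64.4 and 99.5 for SOX2 and 17.1, 14.5 and 16.8 for β-catenin. SOX2 exceeded β-catenin in each replicate at both sites.

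Hox genes, which set position along the trunk, were nearest to shared sites for 17 of 39 (43.6%), to β-catenin-only sites for 9 (23.1%, beside 12.1% and 12.5% of all genes) and to SOX2-only sites for 6 (15.4%), the last near the 14.1% of all genes. With all deposited peaks the SOX2-only share of Hox genes was 69.2%, above the 36.9% of all genes. At the Hoxb1 promoter the fold was 34.8, 79.3 and 89.5 for SOX2 and 29.6, 44.3 and 29.9 for β-catenin. Hoxb9 had 1 shared site 551 bp downstream of its start, with 15.1, 11.7 and 10.3 for SOX2 and 24.2, 20.4 and 9.03 for β-catenin, and 1 β-catenin-only site 9.94 kb upstream with 10.1, 11.4 and 5.09. MEIS and PBX cofactors of Hox proteins were near shared sites for 7 of 10 genes (70.0%, beside 12.1% of all genes). They were near sites of either other class for 5 (50%), beside 14.1% of all genes for SOX2 only and 12.5% for β-catenin only. At Meis3 the shared site lay 1.05 kb upstream, with 13.3, 17.2 and 12.7 for SOX2 and 38.4, 31.0 and 23.2 for β-catenin.

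Retinoic acid pathway genes had no order of the classes that held across settings. Of 10 genes, 6 (60%) were nearest to a β-catenin-only site, 4 (40%) to a SOX2-only site and 3 (30.0%) to a shared site. Over all genes these shares were 12.5%, 14.1% and 12.1%. Within 10000 bp 2 (20.0%) were near a β-catenin-only, 4 (40%) near a SOX2-only and 2 (20.0%) near a shared site. The all-gene shares within that reach were 5.19%, 7.94% and 5.71%. With 3 of 3 libraries required each class had 2, beside 6.98%, 7.07% and 7.10% of all genes in the same order. With all deposited peaks 1 gene was near a β-catenin-only, 8 near a SOX2-only and 5 near a shared site. The all-gene shares were then 7.94%, 36.9% and 21.2%. The SOX2-only share of all genes thus also rose in this setting, where the SOX2 lists are longer. The genes named next were chosen from their values. Cyp26b1, which degrades retinoic acid, and Crabp2, which binds it, were near SOX2-only and β-catenin-only sites and no shared site. Aldh1a2, which makes retinoic acid, was near a β-catenin-only site. Ribosomal protein genes, listed as housekeeping genes outside these pathways, were near shared sites for 4 of 79 (5.06%), below the 12.1% of all genes, and within 10000 bp for 0. They were near SOX2-only sites for 13 (16.5%) and β-catenin-only sites for 10 (12.7%), near the background of 14.1% and 12.5%. With all deposited peaks these shares were 50.6% and 11.4%, beside 36.9% and 7.94% of all genes.

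**Figure D5:**
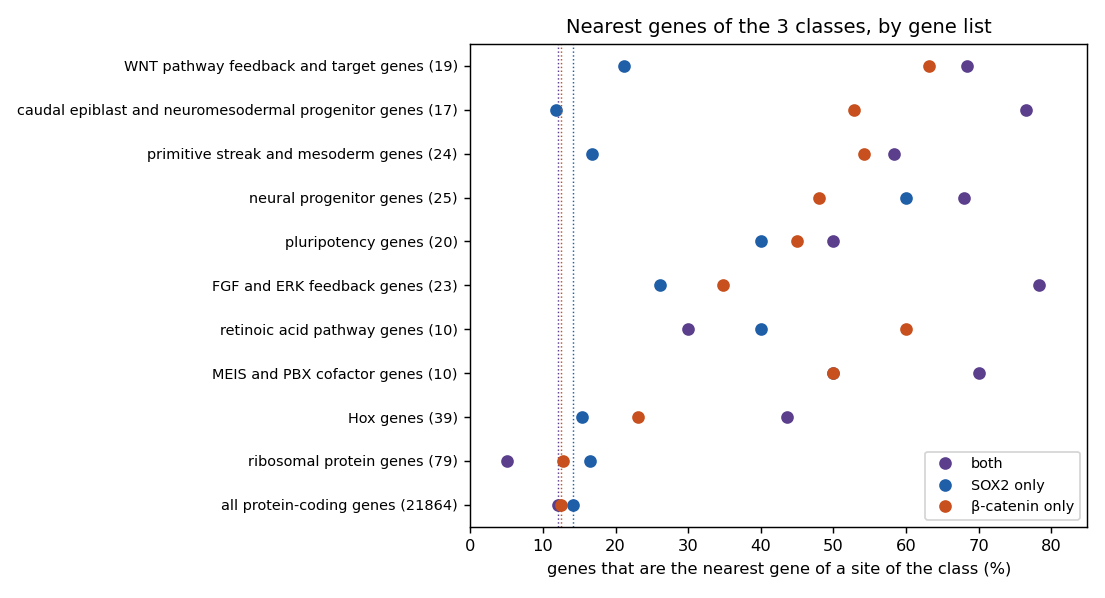
Share of the genes of each list (horizontal axis, %; list sizes in brackets) that are the nearest gene of at least 1 site bound by both, by SOX2 only or by β-catenin only. Dotted lines mark the shares over all 21864 protein-coding genes, 12.1%, 14.1% and 12.5%. FGF and ERK feedback genes (78.3%) and caudal epiblast genes (76.5%) have the highest shares of shared sites and ribosomal protein genes (5.06%) the lowest, and for MEIS and PBX genes the points of SOX2 only and β-catenin only coincide at 50%.

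Developmental genes often lie in wide intergenic regions, which makes a gene the nearest one to more sites, and the part of region size in these shares was not tested beyond the 10000 bp limit. Binding near a gene does not show that the gene is regulated by it.

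The strongest sites of each class were named by rank. Strongest among the shared sites were those near or within Urm1, Med13l, Mapkap1, Chn2 and Lhpp, none of them on a list above. At the Med13l site, 495 kb from the nearest start, the fold was 71.5, 152 and 168 for SOX2 and 56.3, 98.3 and 81.6 for β-catenin. At the Mapkap1 site β-catenin was higher in each replicate, with 57.4, 125 and 119 against 34.8, 36.4 and 61.1 for SOX2. Of the printed sites, the Med13l window alone held 2 SOX and 2 TCF matches, and its TCF match CTTTGAA runs directly into a SOX match read from the other strand.

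The 6 strongest SOX2-only sites lay near Nrarp, Ebf1, Lefty1, Ccdc150, Igfbpl1 and Sox9. At the promoter of Nrarp, a Notch and WNT feedback gene, the SOX2 fold was 31.5, 73.6 and 85.1, and 1.14 kb upstream of Lefty1, an inhibitor of Nodal, it was 24.3, 42.0 and 48.7. The 6 strongest β-catenin-only sites lay near Gm572, Prickle2, Nhsl1, Insr, Nkx6-1 and Elf2. The β-catenin fold was 27.1, 41.2 and 32.0 near Gm572 and 30.6, 38.2 and 28.4 in an intron of Prickle2, a gene of planar cell polarity. These sites ranked between 203 and 922 in their β-catenin libraries, while the 6 strongest SOX2-only sites ranked between 13 and 269 in theirs.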

How the data were processed

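ChIP–seq peak lists of 33 libraries were used, of 60 lists in the series. No list was used for the 4 input samples. Per the study's methods, single-end reads of 76 bp were run by the authors through nf-core/ChIP-seq, which aligned them with BWA to mm10 and called narrow peaks for each library with MACS2 at q below 0.05, without pooling replicates. Cells had been fixed with DSG for 45 min and formaldehyde for 10 min. The sources used here do not say which input served which library. The deposited fold is the ratio of summit signal to local background as the authors' peak caller gave it, and −log10 of the p-value and of the q-value, also deposited per peak, refer to the summit. Signal was normalized by the peak caller, so folds depend on depth and on the input, which were not analysed here.

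Libraries were grouped by their labels. Lists were ranked by −log10 p-value and shortened to the shortest of the 6 (10930 peaks, upper limit 20000), and peaks sharing at least 1 bp were merged. The middle of a site is the median of its strongest summits. Of 219650 peaks, 0 lay past a chromosome end and 0 summits lay outside their peak, and 0 pairs of lists were identical. Gene starts came from protein-coding transcripts of GENCODE M21. Python 3.11.15 with numpy 2.4.6, pandas 2.3.3, scipy 1.17.1 and matplotlib 3.10.9 was used, and the scripts were tested on simulated data.

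Groups were compared with exact permutation tests over libraries, adjusted by Benjamini–Hochberg over 4 motifs. With 3 against 3 libraries p cannot go below 0.1, and with sign flips of 3 not below 0.25, so no test could pass 0.05. Sites were never used as replicates. The classes, motifs and gene lists were chosen with earlier results of these data known. Named sites were the 6 best by median rank in each class, with a peak in 3 of 3 libraries of each bound protein, of which 1 shared site is not reported here. Named genes were up to 6 per list with the best-ranked shared site, plus the loci T, Cdx2, Meis3, Hoxb9, Nodal, Tbx6, Klf2, Axin2, Sp5 and Sox2. Other genes named are said to be chosen from their values. Alternatives varied list length, libraries required, fold minimum, overlap, windows, reach of the nearest gene and replicates.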

Additional observations from a re-analysis of the deposited data

How the results depend on the processing

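Counts of sites moved with the list length and the number of libraries required, and counts of genes also with the reach allowed to the nearest gene. Sites bound by both numbered 586 with at most 2000 peaks per list, 1643 with at most 5000, 7430 with all deposited peaks, 1944 with 3 of 3 libraries and 2209 with a fold of at least 5 (6665 peaks per library), and 2294 to 2589 with a replicate left out. Sites bound by SOX2 only numbered 1044, 2186, 13292 and 1693 under the first 4 of these, and 2462 to 2816 with a replicate left out. Sites bound by β-catenin only numbered 1081, 2196, 2006 and 1758, and 1332 where absence of SOX2 was read in the full lists, and 2392 to 3045 with a replicate left out. Nearest genes of shared sites numbered 1249 within 10000 bp, 1552 with 3 of 3 libraries and 4644 with all deposited peaks, those of SOX2-only sites 1736, 1545 and 8060, and those of β-catenin-only sites 1135, 1527 and 1736.

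The direction of 3 differences changed. The CDX motif difference of −0.146 became 0.0152 with a 50 bp window, 0.0732 with 250 bp, 0.350 with at most 2000 peaks, 0.320 with all deposited peaks and 0.256 without replicate 1, and ranged from −0.389 to 0.256 with a replicate left out. The difference in peaks met by the other protein (−0.567 percentage points) became 0.05 with at most 2000 peaks and −34.3 with all deposited peaks, and the difference in distance to T matches became −0.667 bp with at most 2000 peaks. The cause was not tested. Of 175 alternative values for 24 results, 143 kept their direction or, for counts of sites and genes, stayed within 1.5 times the reported count.

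Replicate numbers paired the libraries weakly, and the tests of 3 against 3 libraries above did not use them. Deviations of same-numbered SOX2 and β-catenin libraries correlated at 0.1, 0.0234 and 0.0488, and those of different numbers at −0.0688 to 0.0181. Each library correlated best with its own number. With the replicate number as a block, the motif differences were 20.4 for SOX, −24.3 for TCF and −2.04 for T, the promoter difference 6.05 (each p = 0.25, exact sign-flip permutation test) and the overlap difference −0.604, and no call changed, since no test of this size can pass the threshold. Depth is not known, so an absent peak may be one that was not detectable.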
